A study of Homo sapiens with 14 samples.

Results

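The proteasome genes of 3 human prostate cancer cell lines were examined, taken as every row of the count table whose gene symbol is PSM followed by a letter from A to G and a number. The rule found 48 of the 62703 genes listed. They code for the subunits of the 20S core (PSMA and PSMB genes), the 19S regulatory cap (PSMC and most PSMD genes), the alternative activators (PSME genes), an inhibitor (PSMF1) and the chaperones that assemble core and cap (PSMG1 to PSMG4, PSMD5, PSMD9 and PSMD10).

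The proteasome degrades proteins that carry ubiquitin chains. The cap binds the chain, removes it, unfolds the protein with a ring of ATPases and feeds it into the core, a barrel of α and β rings whose catalytic β subunits cut it into peptides. In cells exposed to interferon γ, PSMB8, PSMB9 and PSMB10 replace the constitutive catalytic subunits PSMB5, PSMB6 and PSMB7 to form the immunoproteasome, whose peptides serve antigen presentation. Most core and cap genes share the transcription factor NFE2L1, which binds antioxidant response elements.

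To investigate how these genes respond to inhibition of CDK8 and CDK19, the kinases of the Mediator complex, LNCaP, 22Rv1 and PC3 cells were treated with the inhibitor SEL120-34A at 1.5 µM for 3 days or with the solvent dimethylsulfoxide (DMSO), and polyadenylated RNA was read as tags near the 3′ end of transcripts (BRB-seq). LNCaP is an androgen-dependent line, 22Rv1 is an androgen-responsive line resistant to enzalutamide, and PC3 lacks the androgen receptor. LNCaP and 22Rv1 had 3 libraries in each arm, whereas PC3 had 1 library in each arm and is described without a test. The 14 libraries held between 246063 and 909176 counts, and the 3 treated 22Rv1 libraries (246063 to 368778) were all shallower than their 3 controls (476455 to 777207). Among the line markers, KLK3, the gene of prostate-specific antigen, averaged 1218 CPM (counts scaled to a common library size) in LNCaP DMSO, 20.4 in 22Rv1 DMSO and 7.6 in PC3 DMSO. Genes of leukocytes, fibroblasts and endothelium were read as well. PTPRC, CD3E and COL1A2 were at 0 in all 14 libraries, and CD68, PDGFRB, PECAM1 and VWF had at most 4 counts in any group. The fibroblast gene COL1A1 averaged 15.5 CPM in LNCaP DMSO and read 92.5 CPM in PC3 DMSO. All levels below are CPM with library sizes scaled by TMM over the 14 libraries. Since each transcript gives its tag at the 3′ end, levels were not divided by length and are compared between genes on this scale only.

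Of the 48 genes, 44 had counts in at least 1 library, 40 had counts in all 14, and 41 were abundant enough to be tested in LNCaP and 22Rv1. The genes that could not be tested were PSMA2, PSMA6, PSMA8, PSMB8, PSMB9, PSMB10 and PSMB11. The sequences shown first are promoters of the genes with the sharpest differences between the lines, so that the letters can be read beside the levels. They run from 250 bases before to 50 bases after a transcription start and come from RefSeq on GRCh38.p14. PSMD5 lies on chr9:120842873-120843172 (minus strand), one of 2 listed PSMB8 starts on chr6:32843998-32844297 (minus strand) and PSMB9 on chr6:32853942-32854241 (plus strand). Capitals mark matches to TGACNNNGC (the core of the antioxidant response element) in PSMD5 and PSMB9, to CCAAT in PSMB9, and to TTCNNNGAA (a STAT-type site) and then GAAANNGAA (the core of an interferon-stimulated response element, here on the opposite strand) in PSMB8. The other listed PSMB8 start (chr6:32844630-32844929) held no match to any of these motifs and is not shown.

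PSMD5: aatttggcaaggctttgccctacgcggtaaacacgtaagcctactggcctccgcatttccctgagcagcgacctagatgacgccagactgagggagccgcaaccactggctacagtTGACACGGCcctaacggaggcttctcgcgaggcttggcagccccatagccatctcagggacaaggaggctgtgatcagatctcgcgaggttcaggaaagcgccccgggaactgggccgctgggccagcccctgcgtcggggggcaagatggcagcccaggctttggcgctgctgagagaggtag
PSMB8: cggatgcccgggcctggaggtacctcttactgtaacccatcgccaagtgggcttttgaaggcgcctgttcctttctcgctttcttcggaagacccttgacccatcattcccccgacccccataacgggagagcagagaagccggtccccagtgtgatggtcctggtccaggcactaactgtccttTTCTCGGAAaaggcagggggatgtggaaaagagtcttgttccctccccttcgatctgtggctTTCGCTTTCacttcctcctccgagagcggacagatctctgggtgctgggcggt
PSMB9: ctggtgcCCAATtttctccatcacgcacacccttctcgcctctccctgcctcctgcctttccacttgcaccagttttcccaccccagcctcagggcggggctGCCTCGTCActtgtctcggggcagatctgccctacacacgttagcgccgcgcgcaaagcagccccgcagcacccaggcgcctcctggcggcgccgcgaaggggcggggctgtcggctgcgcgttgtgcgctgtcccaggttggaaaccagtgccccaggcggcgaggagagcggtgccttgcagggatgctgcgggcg

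All 4 motifs were searched on both strands in the 51 promoters listed for 42 of the 48 genes. PSMA7, PSMB1, PSMB6, PSMB7, PSMD4 and PSMG3 had no entry. TGACNNNGC was found in 29.4% of these promoters and in 13.3% of all 35116 promoters of the same length. PSMD3 and PSMD9 held 2 matches each, and PSMA4, PSMB3, PSMB9, PSMC4, PSMC5, PSMD1, PSMD5, PSMD12, PSME1, PSME2, PSME4, PSMG1 and PSMG2 held 1. CCAAT was found in 39.2% against 34.6%, GAAANNGAA in 15.7% against 8.11%, and TTCNNNGAA in 15.7% against 7.66%. These matches describe the letters of the windows only.

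To describe the complex before treatment, the levels in DMSO libraries were compared between the lines. PSMA7, the α4 subunit of the core, was the most abundant member in each line, with 537 ± 37.6 CPM in LNCaP (mean ± SD, n = 3), 539 ± 21.4 in 22Rv1 (n = 3) and 944 in the PC3 library. PSMB5 (458 ± 8.86 CPM), PSMB1 (422 ± 36.9) and PSMD8, a lid subunit (331 ± 8.13), followed in LNCaP, and PSMB5 was above PSMB1 in each of the 3 libraries although their ranges of mean ± SD overlapped. In 22Rv1, PSMB4 (355 ± 32.0 CPM), PSMB1 (329.6 ± 36.3) and PSMB2 (324 ± 12.7) came next, with overlapping ranges of mean ± SD. Among the tested genes with low levels in both lines were the activators PSME2 (23.3 ± 0.659 CPM in LNCaP and 14.5 ± 4.02 in 22Rv1) and PSME4 (15.7 ± 8.77 and 24.9 ± 9.11) and the chaperone PSMD10 (37.2 ± 10.97 and 17.6 ± 5.16).

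Summed over its genes under the naming rule, the core reached 3147 ± 200.2 CPM in LNCaP DMSO, 2959 ± 114 in 22Rv1 DMSO and 3837 in PC3 DMSO. PSMA2 and PSMA6 added 0 to these sums. The cap reached 2392 ± 156, 2557 ± 33.9 and 2974 CPM. The core sum divided by the cap sum was 1.30, 1.30 and 1.34 in the LNCaP DMSO libraries and 1.17, 1.12 and 1.17 in the 22Rv1 DMSO libraries, so that all 3 LNCaP values were above all 3 22Rv1 values. PC3 DMSO stood at 1.29.

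Between untreated 22Rv1 and LNCaP, 15 of the 41 tested members differed at an adjusted p under 0.05 (edgeR quasi-likelihood test, Benjamini-Hochberg over 7086 genes), 8 higher and 7 lower in 22Rv1. Over all tested genes 49% differed, 25% higher and 24% lower, beside 36.6% of the members. With library totals in place of TMM, 19 members differed (50.4% of all genes), 17 higher and 2 lower. The median of all genes then moved from 0.03 to 0.24 on the log2 scale. The core held 8 differing genes among 12 tested, 3 higher and 5 lower, while the cap held 4 of 17, the assembly factors 3 of 7 and the activators 0 of 4. These counts include the assembly factor PSMD5, which passed the filter on low values only through 22Rv1. At an unadjusted p under 0.05 the activators held 0 of 4 as well, and DESeq2 and limma-trend also gave 0 of 4. DESeq2 called 9 of 41 members in all (38.5% of all genes) and limma-trend 9 of 43 (32.8%).

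**Figure D1:**
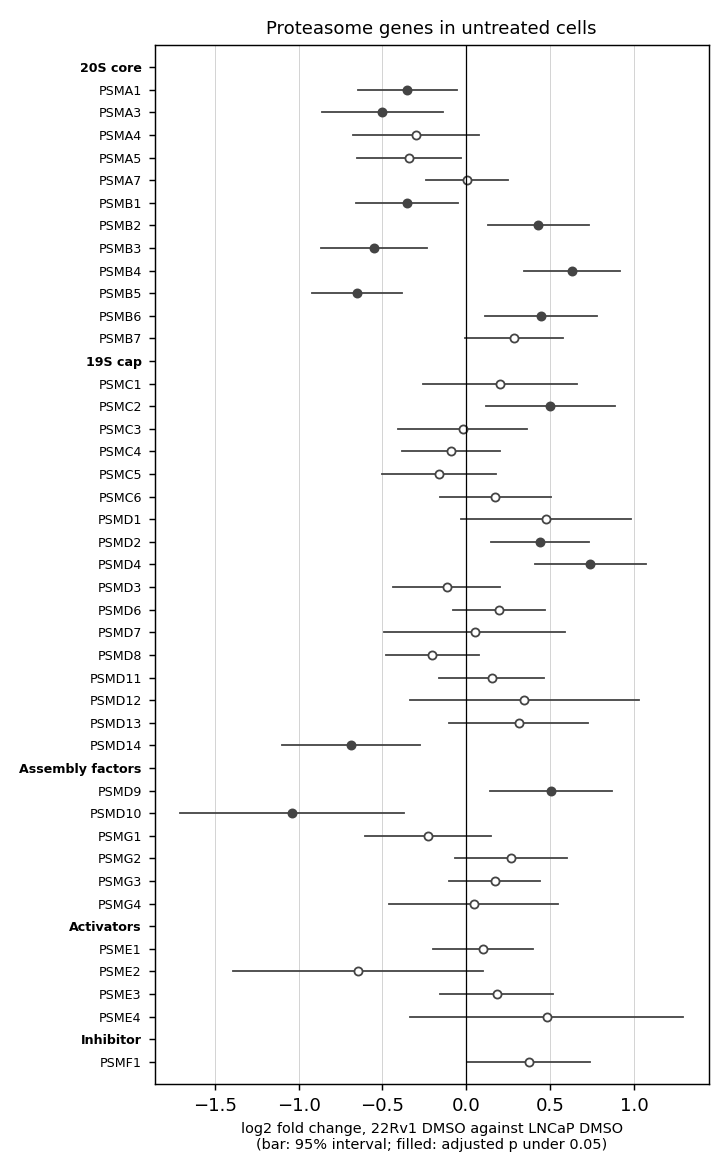
Log2 fold change of each tested proteasome gene in untreated 22Rv1 against untreated LNCaP (horizontal axis), with 95% intervals from 3 libraries per line. Filled points passed an adjusted p of 0.05. Core genes spread to both sides, from -0.65 for PSMB5 to 0.63 for PSMB4. PSMD5 is left out because it had 1 count in LNCaP DMSO.

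PSMD5, a chaperone that holds ATPase subunits during assembly of the cap base, gave the widest gap between LNCaP and 22Rv1 among the tested members. Its 3 LNCaP DMSO libraries held 0, 0 and 1 counts and its 3 treated LNCaP libraries held 0 each. In 22Rv1 it held 19, 14 and 31 counts in DMSO (37.3, 26.2 and 37.0 CPM) and 9, 5 and 15 counts after SEL120-34A (24.8, 21.5 and 42.8 CPM). The PC3 libraries held 33 and 20 counts (35.9 and 35.1 CPM). Every 22Rv1 and PC3 library was thus above every LNCaP library. Taken over the DMSO libraries, 64 counts in 22Rv1 stood against 1 in LNCaP, a ratio of 61.5 with an exact 95% counting interval of 10.6 to 2465, and the adjusted p in edgeR was 1.74e-08. PSMD5 passed the filter on low values only through 22Rv1 and so had to differ. Of the other 40 tested members, 14 differed.

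The gene occupies chr9:120815496-120842951 on the minus strand of GRCh38 (GENCODE 44), and none of its last 500 exonic bases lies in another gene of that strand. On one side, B3GALT9 had 1, 0 and 4 counts in LNCaP DMSO and 0, 0 and 1 in 22Rv1 DMSO. Beyond it, FBXW2 had 40, 10 and 36 against 19, 14 and 24, and MEGF9 had 1, 1 and 2 against 6, 10 and 10. On the other side, PHF19 had 1, 2 and 2 counts in LNCaP DMSO, 11, 7 and 5 in 22Rv1 DMSO and 197 in PC3 DMSO. Farther out, TRAF1 had 0, 0 and 0 counts in LNCaP DMSO and 0, 0 and 1 in 22Rv1 DMSO. C5 had 0, 0 and 0 against 3, 5 and 5.

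Among the subunits of the core, PSMB5, the chymotrypsin-like catalytic subunit, read 462, 463 and 447 CPM in LNCaP DMSO and 275, 296 and 302 in 22Rv1 DMSO. The 2 groups did not overlap, and PSMB5 was lower in 22Rv1 (log2 fold change -0.65, 95% interval -0.92 to -0.38, adjusted p = 8.66e-05). PSMB4, a structural β subunit, went the other way, with 206, 262 and 228 CPM in LNCaP and 377, 318 and 370 in 22Rv1 (log2 fold change 0.63, adjusted p = 3.30e-04). PSMB3, also structural, read 225, 204 and 249 CPM in LNCaP and 147, 172 and 150.3 in 22Rv1 (-0.55, adjusted p = 0.00367).

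The remaining called core genes were PSMB2 (log2 fold change 0.43) and PSMB6, the caspase-like catalytic subunit (0.45), which were higher in 22Rv1, and PSMA3 (-0.50), PSMA1 (-0.35) and PSMB1 (-0.35), which were lower. PSMB6 read 119.7, 173 and 130.03 CPM in LNCaP and 208, 168 and 187 in 22Rv1, so that the groups overlapped. PSMB7, the trypsin-like catalytic subunit, had a log2 fold change of 0.28 and an adjusted p of 0.0993. The calls of PSMA1 and PSMB1 were lost in 14 of 21 alternative settings each, those of PSMA3 and PSMB6 in 7 each, that of PSMB2 in 3 and that of PSMB3 in 1.

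In the cap, PSMD4, a ubiquitin receptor, read 109.9, 107 and 110.5 CPM in LNCaP DMSO and 175, 204 and 173 in 22Rv1 DMSO. It was higher in 22Rv1 by 0.74 on the log2 scale (95% interval 0.41 to 1.07, adjusted p = 2.66e-04). PSMD14, the deubiquitinase of the lid, read 95.8, 154 and 129 CPM in LNCaP and 72.6, 73.0 and 82.3 in 22Rv1 (log2 fold change -0.69, adjusted p = 0.00491). PSMD2, the scaffold of the base, read 206, 215 and 207 CPM against 277, 260.2 and 310.1 (0.44, adjusted p = 0.0109), and the ATPase PSMC2 was also higher (0.50), a call lost in 7 of 21 settings. The calls of PSMD14 and PSMD2 were lost in 2 of 21 settings each.

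Assembly factors differed in both directions. PSMD10, known as gankyrin, read 29.6, 49.7 and 32.2 CPM in LNCaP DMSO and 23.6, 15.0 and 14.3 in 22Rv1 DMSO, on 8 to 23 counts per library (log2 fold change -1.04, adjusted p = 0.00866). The PSMD10 call was lost in 1 of 19 settings. PSMD9, another chaperone of the base, was higher in 22Rv1 (0.50, adjusted p = 0.0185), a call lost in 6 of 21 settings. The 4 core chaperones PSMG1 to PSMG4 had log2 fold changes between -0.23 and 0.27, and 0 of 4 differed, with 0 of 4 at an unadjusted p under 0.05 in edgeR, DESeq2 and limma-trend alike.

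Of the immunoproteasome genes, PSMB8 and PSMB9 were near 0 in LNCaP and 22Rv1 and present in PC3, while PSMB10 had 0 counts in both PC3 libraries, 5 over the LNCaP and 1 over the 22Rv1 libraries. PSMB8 had 2 counts over the 6 LNCaP libraries, 1 count over the 6 22Rv1 libraries, and 56 and 33 counts in the PC3 DMSO and SEL120-34A libraries (61.0 and 57.9 CPM). In CPM over both arms this was 0.688 in LNCaP (exact 95% counting interval 0.0833 to 2.49), 0.354 in 22Rv1 (0.00895 to 1.97) and 59.8 in PC3 (48.0 to 73.6). PSMB9 had 2 counts in LNCaP, 11 in 22Rv1 (3.89 CPM, 1.94 to 6.96) and 35 in PC3 (23.5 CPM, 16.4 to 32.7). Intervals cover counting error only, and the PC3 values rest on 1 library per arm.

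Summed, PSMB8, PSMB9 and PSMB10 gave 3.74 ± 3.24 CPM in LNCaP DMSO, 3.13 ± 1.10 in 22Rv1 DMSO and 89.3 in PC3 DMSO. The PSMB10 term of these sums is uncertain, because another annotated gene shares its 3′ end. The constitutive counterparts PSMB5, PSMB6 and PSMB7 summed to 815 ± 47.8, 739 ± 41.5 and 938 CPM. After SEL120-34A the immunoproteasome sum was 1.30 ± 2.25 CPM in LNCaP, 7.04 ± 2.38 in 22Rv1 and 73.6 in PC3, all from 1, 7 and 42 counts. PSMB9 in 22Rv1 read 3.93, 1.87 and 3.58 CPM in DMSO and 5.51, 4.29 and 5.70 CPM after treatment. The arms did not overlap, but they held 6 and 5 counts, and 1 count more or fewer in a library would reorder them.

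**Figure D2:**
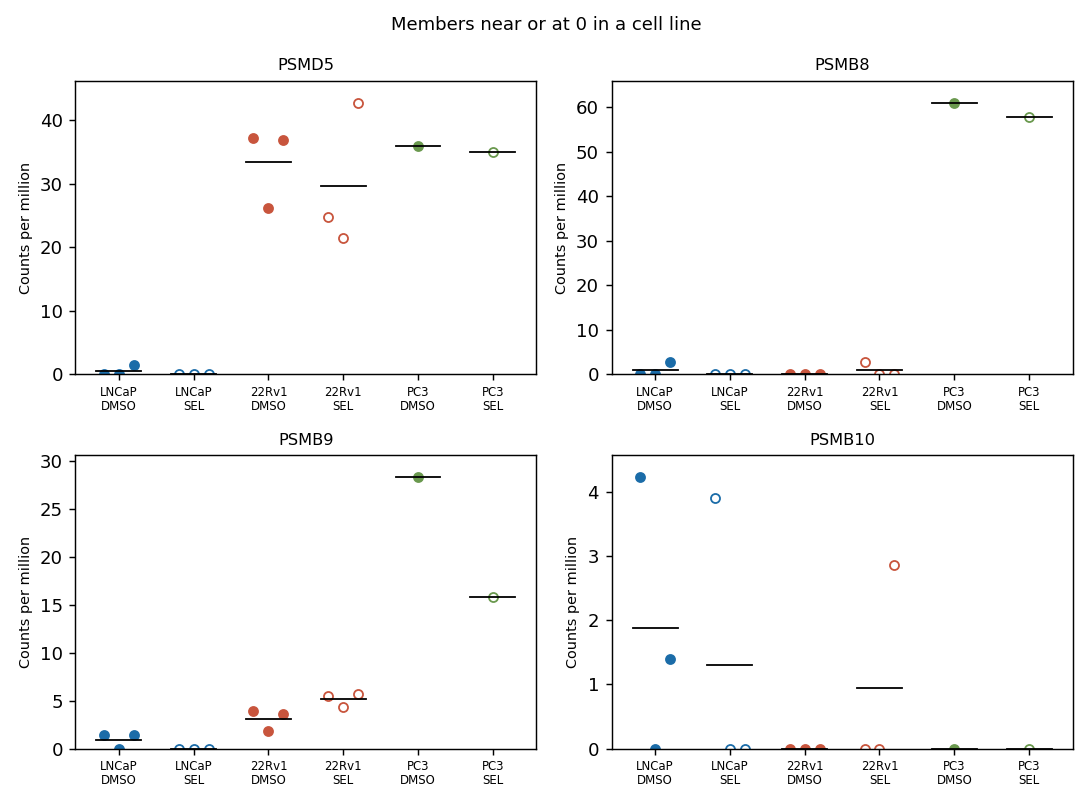
Level in CPM (vertical axes, each from 0) of PSMD5, PSMB8, PSMB9 and PSMB10 in every library. Filled points are DMSO libraries, open points SEL120-34A libraries (SEL), and lines are means over 3 libraries or the single PC3 library. PSMD5 is at 0 in 5 of 6 LNCaP libraries, and PSMB8 and PSMB9 are highest in PC3.

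PSMA2, PSMA6 and PSMB10 share nearly their whole 3′ end with another annotated gene. For PSMB10, all of the last 500 exonic bases lie in a second protein-coding gene of the same strand (ENSG00000261884), and the gene held 6 counts over the 14 libraries. PSMA2 shares all of its last 500 exonic bases with ENSG00000256646 and PSMA6 shares 96.2% with ENSG00000258790, and both stood at 0 counts in all libraries although they are obligate subunits of the α ring. The 3 sharing genes stood at 0 counts too. Among all protein-coding genes with at least 90% of this stretch shared, 81.8% of 1059 had 0 counts, against 21.7% of 18438 genes with none of it shared. For PSMA2, PSMA6 and PSMB10, tags dropped because 2 genes claim them and lack of transcript cannot be told apart in these counts. PSMA1 shares 43.8% with another gene and held 1511 counts.

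PSMA8, the α subunit of testis, and PSMB11, the β subunit of thymus, were at 0 in all 14 libraries, where 0 counts over the 6 LNCaP libraries allow up to 1.03 CPM. Listed copies of members also took tags. The copies PSMA6P1 and PSMA6P2 held 523 and 66 counts, PSMC1P1 held 194 against 405 for PSMC1, and PSME2P2 held 158 against 162 for PSME2, so the levels of PSMC1 and PSME2 are uncertain by the tags assigned to copies.

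To evaluate the effect of CDK8/19 inhibition, treated and control libraries were then compared within each line. No member passed an adjusted p of 0.05 in LNCaP or in 22Rv1. Core genes had log2 fold changes from -0.16 to 0.28 in LNCaP and from -0.14 to 0.48 in 22Rv1. Their 95% intervals reached from -0.51 to 0.59 and from -0.51 to 0.80. Their median standard error was 0.16 in both lines, beside 0.29 in LNCaP and 0.30 in 22Rv1 over all tested genes. In both lines all 12 tested core genes had 95% intervals inside a change of 1 on the log2 scale, and so had 15 of 17 cap genes in LNCaP and 16 of 17 in 22Rv1.

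**Figure D3:**
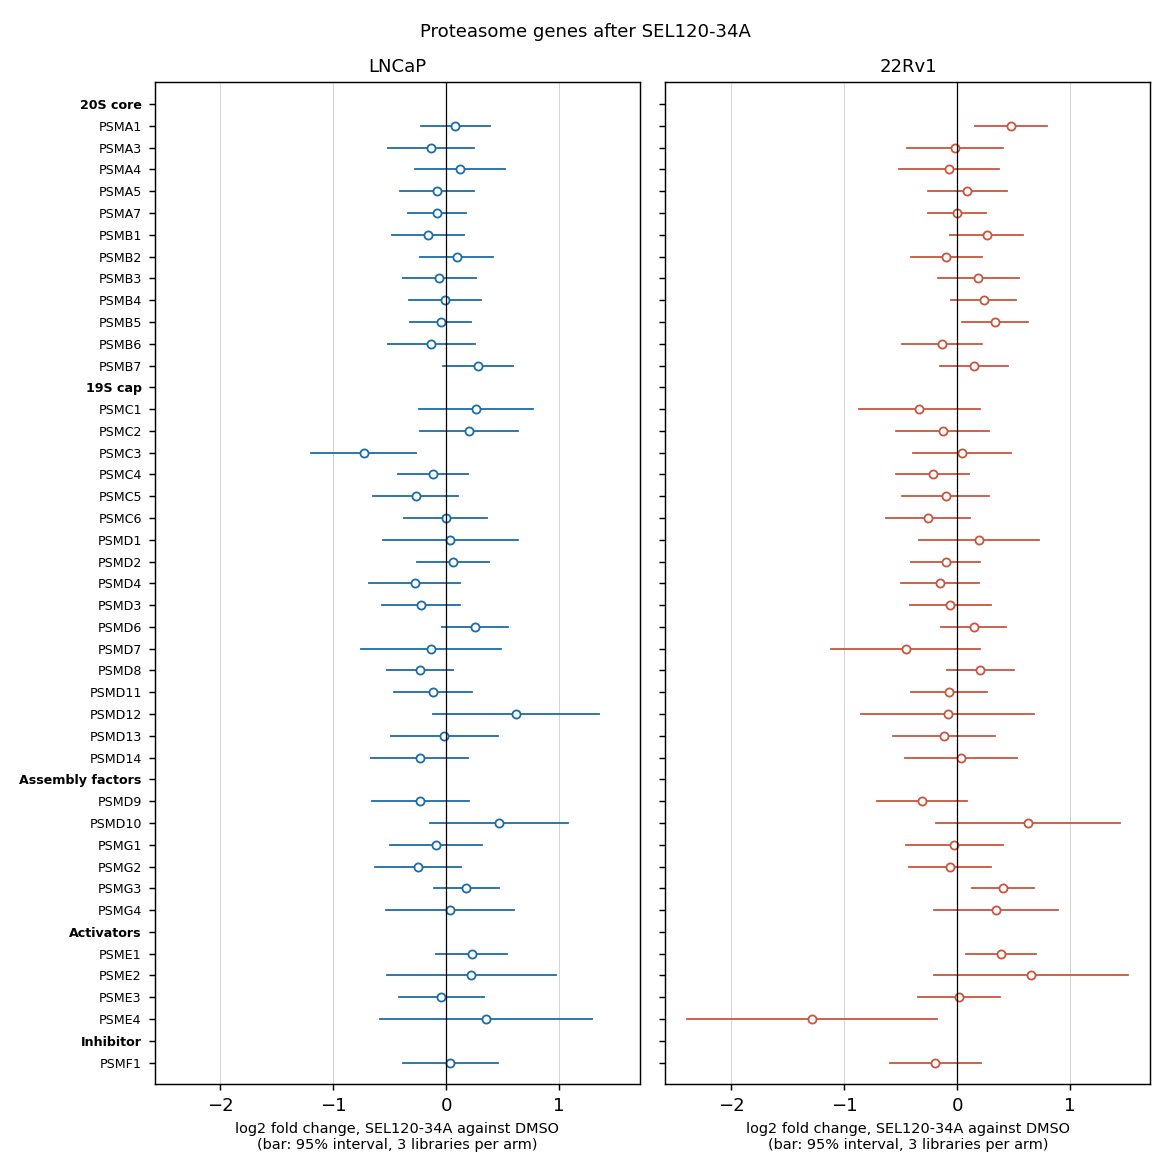
Log2 fold change after SEL120-34A (horizontal axes) of each tested proteasome gene in LNCaP (left) and 22Rv1 (right), with 95% intervals from 3 libraries per arm. Open points did not pass an adjusted p of 0.05, which was the case for every member, and the widest intervals belong to genes of few counts such as PSME4. PSMD5 is left out because it had 1 count in LNCaP.

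In LNCaP, 0 of the 41 members differed in edgeR, against 2.77% of all tested genes. DESeq2 and limma-trend also called 0. At an unadjusted p under 0.05 there was 1 member (13.5% of all genes). The arms of 5 members did not overlap, 2 with treated libraries above and 3 below, all of them in the cap, while the same held for 19.4% of all genes. The median log2 fold change was -0.05 over core genes, -0.11 over cap genes, -0.09 over assembly factors and 0.22 over activators, beside 0.00 over all genes.

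The member with the smallest p was PSMC3, an ATPase of the base that contacts the ubiquitin chain. It read 98.6, 107 and 82.5 CPM in LNCaP DMSO and 35.1, 62.3 and 63.4 CPM after SEL120-34A, on 9 to 30 counts in the treated libraries. All 3 treated libraries were below all 3 controls. The log2 fold change was -0.73 (95% interval -1.20 to -0.26) with an adjusted p of 0.0861 in edgeR. It passed with library totals (adjusted p = 0.0466) and after thinning all libraries to the smallest (adjusted p = 0.0158). These were 2 of 21 alternative settings, and the adjusted p reached 0.340 in another. With library totals the median of all genes in LNCaP also moved to -0.08. In 22Rv1, PSMC3 read 98.2, 99.2 and 85.9 CPM in DMSO and 82.7, 120.2 and 91.3 after treatment, so that the arms overlapped, and the PC3 libraries read 78.4 and 78.9 CPM. The difference between the lines, -0.78 on the log2 scale (95% interval -1.42 to -0.14), had an adjusted p of 0.331.

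Next in LNCaP were PSMB7 (213, 233 and 203 CPM in DMSO against 261, 285 and 226 after treatment) and PSMD6, a lid subunit (241, 267 and 227 CPM against 300.2, 274 and 281). Their log2 fold changes were 0.28 (adjusted p = 0.424) and 0.26 (adjusted p = 0.453). The other non-overlapping cap genes in LNCaP were PSMD12 (0.62), PSMD8 (-0.23) and PSMC5 (-0.27), with adjusted p from 0.48 to 0.569. PSMB5 and PSMB6 had log2 fold changes of -0.05 and -0.13.

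In 22Rv1, again 0 of 41 members differed in edgeR, against 5.7% of all genes, and DESeq2 and limma-trend also called 0. At an unadjusted p under 0.05 there were 5 members, beside 19.1% of all genes. Arms did not overlap for 7 members, 5 above and 2 below, beside 23% of all genes. The median log2 fold change was 0.12 over core genes and -0.10 over cap genes, and within the cap -0.17 over the ATPase ring. With library totals the median of all genes moved to -0.14 and the core median to -0.03, so the core stayed above the median of all genes by a similar amount. All treated 22Rv1 libraries were shallower than the controls, and with every library thinned to the smallest the core median was 0.25.

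PSMA1, the α6 subunit, read 159, 170.3 and 175 CPM in 22Rv1 DMSO and 239.8, 270.4 and 197 after SEL120-34A. All treated libraries were above all controls (log2 fold change 0.48, 95% interval 0.16 to 0.80, adjusted p = 0.0626), and without the third treated library the adjusted p was 0.0302. That was the only 1 of 22 alternative settings in which PSMA1 passed, and the adjusted p reached 0.385 in another. PSMG3, a chaperone of the α ring, read 285, 250.8 and 281 CPM against 358, 378 and 342 (0.41, adjusted p = 0.0709). PSMB5 read 275, 296 and 302 CPM in DMSO and 325, 442 and 342 after treatment (0.34, 95% interval 0.05 to 0.63, adjusted p = 0.174).

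Activators showed values in both directions in 22Rv1. PSME1, a subunit of the interferon-responsive PA28 ring, read 279, 198 and 215 CPM in DMSO and 289, 330.5 and 279.5 after treatment, where the arms lay next to each other without overlap (log2 fold change 0.39, adjusted p = 0.136). PSME4, which codes for PA200, an activator of nuclear proteasomes, read 25.5, 33.7 and 15.5 CPM in DMSO and 11.02, 12.9 and 5.70 after treatment, on 2 to 4 counts per treated library. Its log2 fold change was -1.28 with an interval of -2.39 to -0.18 (adjusted p = 0.174), which shows how little these counts fix its size. PSME2, the partner of PSME1, had 0.66 (-0.20 to 1.52) and PSME3, the nuclear PA28γ, had 0.02 (-0.35 to 0.38).

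In LNCaP the same 4 genes had log2 fold changes of 0.23 (PSME1), 0.22 (PSME2), -0.04 (PSME3) and 0.35 (PSME4), with 0.57 as the smallest adjusted p. The inhibitor PSMF1 had 0.04 in LNCaP and -0.19 in 22Rv1. PSMD10 read 23.6, 15.0 and 14.3 CPM in 22Rv1 DMSO and 27.6, 25.8 and 25.7 after treatment (0.63, adjusted p = 0.425), and the ATPase PSMC6 read 129.6, 129 and 129 CPM against 116, 81.5 and 117 (-0.26, adjusted p = 0.492).

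**Figure D4:**
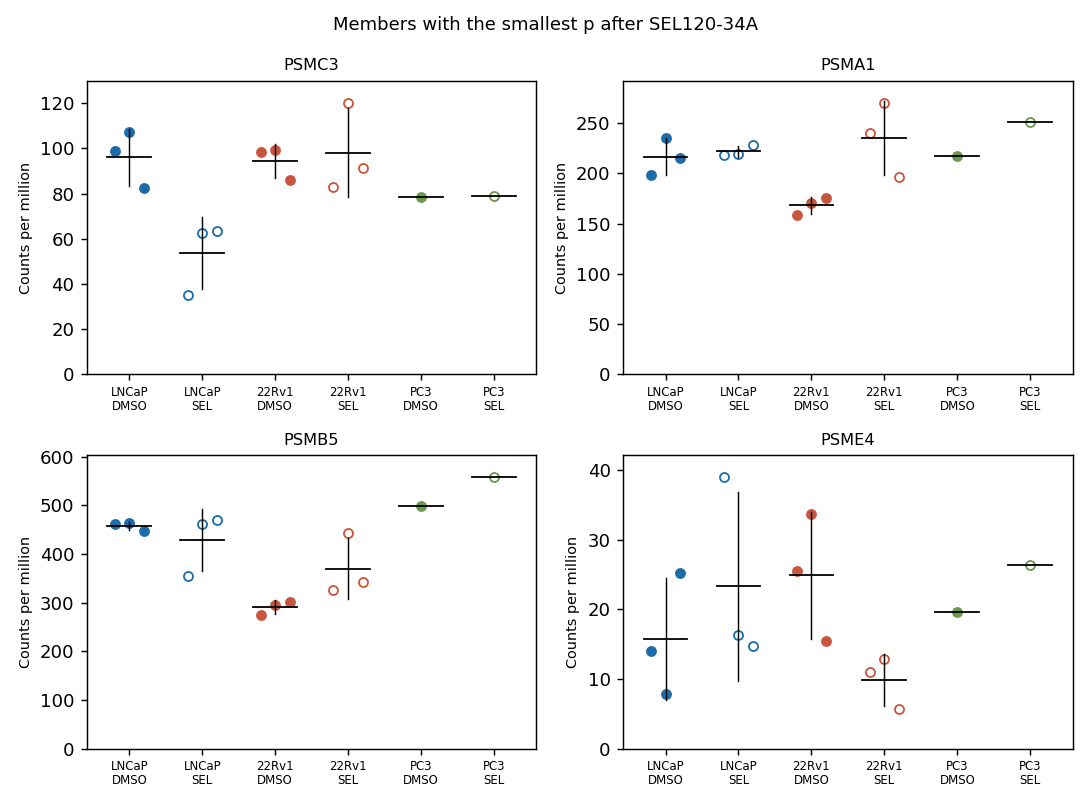
Level in CPM (vertical axes, each from 0) of PSMC3, PSMA1, PSMB5 and PSME4 in every library. Filled points are DMSO libraries and open points SEL120-34A libraries (SEL), and lines give the mean ± SD of 3 libraries, or the single PC3 library. PSMC3 is lower in treated LNCaP libraries (35.1 to 63.4 CPM) than in controls (82.5 to 107 CPM) but overlaps in 22Rv1.

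The response was also compared between the lines by the interaction term. Among the 41 members 0 differed in edgeR, DESeq2 and limma-trend, beside 0.734% of all genes, and 3 members had an unadjusted p under 0.05 (11.4% of all genes). Besides PSMC3 these were PSME4 (LNCaP minus 22Rv1 1.63 on the log2 scale, 95% interval 0.17 to 3.10, adjusted p = 0.383) and PSMD8 (-0.44, adjusted p = 0.413). PSMD8 read 327, 340.3 and 326 CPM in LNCaP DMSO against 300.2, 230.4 and 298 after treatment, and 289, 266 and 307 CPM in 22Rv1 DMSO against 322, 391 and 285.

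Summed over the genes of the naming rule, the core went from 3147 ± 200.2 to 3004 ± 128 CPM in LNCaP, from 2959 ± 114 to 3253 ± 406 in 22Rv1 and from 3837 to 3858 in PC3. ADRM1 and SEM1 lie outside that rule and are not in the cap sum. Their log2 fold changes in 22Rv1 were -0.15 and 0.65. The cap sum went from 2392 ± 156 to 2194 ± 178, from 2557 ± 33.9 to 2448 ± 105 and from 2974 to 2748 CPM. The ratio of core to cap was 1.17, 1.12 and 1.17 in 22Rv1 DMSO and 1.20, 1.56 and 1.23 after SEL120-34A, so that every treated library was above every control. The highest, 1.56, belonged to the library with the fewest counts of all (246063). In LNCaP the ratio was 1.30, 1.30 and 1.34 in DMSO and 1.35, 1.46 and 1.31 after treatment, where the arms overlapped, and in PC3 it was 1.29 and 1.40. With 3 libraries per arm a two-sided exact permutation test of the ratio cannot go below 0.1, and the ratio is given without a test.

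**Figure D5:**
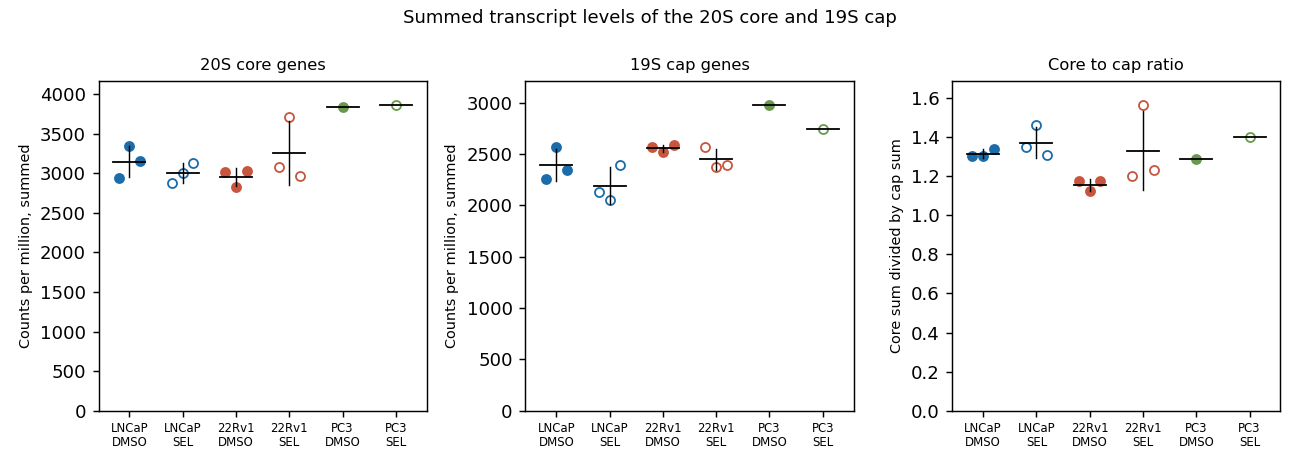
Summed level of the 20S core genes and of the 19S cap genes in CPM, and the ratio of both (vertical axes, each from 0), in every library. Filled points are DMSO libraries and open points SEL120-34A libraries (SEL), with the mean ± SD of 3 libraries or the single PC3 library. The ratio in 22Rv1 runs from 1.12 to 1.17 in DMSO and from 1.20 to 1.56 after treatment.

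In PC3, 0 of the 42 members with at least 10 counts in both libraries went beyond a change of 1 on the log2 scale, beside 2.93% of 7089 genes. The median log2 ratio was -0.08 over the core, -0.10 over the cap and 0.22 over the assembly factors, beside 0.05 over all genes. PSME1 had 283 and 116 counts (308 and 203 CPM, log2 ratio -0.60 with a counting interval of -0.92 to -0.28), where 22Rv1 had 0.39. PSMG3 had 206 and 172 counts (224 and 302 CPM, 0.43 with an interval of 0.13 to 0.73), and PSMC6 had 251 and 119 counts (-0.39, -0.72 to -0.07). These 3 were the only members whose counting interval left out 0. The share of all genes with such an interval was not computed, so the 3 cannot be weighed against it. They also compare 2 libraries rather than 2 conditions.

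Genes that work with the proteasome were taken from 4 lists. Of 10 partners, 9 were tested. In LNCaP 1 rose (2.77% of all tested genes differed), TXNL1, a thioredoxin-like protein bound to the lid, with 277 ± 10.7 CPM in DMSO and 469 ± 125 after treatment (log2 fold change 0.76, adjusted p = 0.00165), and it read 327 ± 35.7 and 291 ± 7.71 CPM in 22Rv1 (-0.16, adjusted p = 0.641). The LNCaP call was lost in 2 of 22 settings, with limma-trend (adjusted p = 0.0776) and without the first treated LNCaP library (0.55, adjusted p = 0.0605). The difference between the lines was 0.93 (adjusted p = 0.0317), a call lost in 10 of 21 settings, beside 0.734% of all genes. The other 8 tested partners did not pass in either line.

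Of 5 regulators, 0 passed in either line, and NFE2L1 read 37.0 ± 6.46 and 52.4 ± 33.8 CPM in LNCaP. NFE2L2 was lower in untreated 22Rv1 than in LNCaP (55.7 ± 9.56 against 106 ± 11.5 CPM, log2 fold change -0.89, adjusted p = 3.34e-04). Of 9 tested genes of ubiquitin supply and shuttling, 2 passed in 22Rv1, beside 5.7% of all tested genes. The ubiquitin fusion gene RPS27A rose (0.46, adjusted p = 0.0199), whereas UBA1, the ubiquitin-activating enzyme, fell from 152 ± 18.01 to 98.7 ± 11.4 CPM (-0.60, adjusted p = 0.0445). The UBA1 call was lost in 10 of 22 alternative settings and that of RPS27A in 6. Between untreated lines, SQSTM1, a ubiquitin receptor of autophagy, stood at 195 ± 11.8 CPM in LNCaP and 1303 ± 108 in 22Rv1 (2.74, adjusted p = 1.21e-20), UBQLN4 was higher (1.15) and UBQLN2 was lower (-0.59) in 22Rv1. The UBQLN2 call was lost in 8 of 20 settings, with a log2 fold change of -0.32 (adjusted p = 0.329) without the third 22Rv1 DMSO library.

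Of the antigen processing list, 5 of 9 genes were tested, and IRF1, NLRC5, TAP2 and ERAP1 were too low. In LNCaP 1 rose, B2M, the light chain of MHC class I, with 132 ± 44.1 CPM in DMSO and 221 ± 41.8 after treatment (0.75, adjusted p = 0.0204), a call lost in 7 of 22 settings. Against LNCaP, untreated 22Rv1 was lower in 4 of the 5, beside 24% of all tested genes, namely HLA-B (47.7 ± 12.4 against 2.50 ± 2.17 CPM), HLA-C (128 ± 15.5 against 12.01 ± 1.90), TAP1 (32.5 ± 5.76 against 7.64 ± 1.83) and B2M (-0.48, adjusted p = 0.04). This B2M call was lost in 10 of 21 settings, with a log2 fold change of -0.15 (adjusted p = 0.609) without the first LNCaP DMSO library. HLA-B, HLA-C and TAP1 passed the filter on low values only through LNCaP and so had to come out lower. Their calls were fixed in advance, so 4 of the 5 cannot be weighed against 24%. In the PC3 DMSO library, where PSMB8 and PSMB9 were highest, HLA-B read 354 CPM and TAP1 45.7.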

How the data were processed

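Cells, treatments and groups were taken from the labels, and 3′ tag libraries of 14 samples were compared. The authors aligned and counted reads with STARsolo on GRCh38.p13 (Gencode 43) and deposited raw counts for 62703 genes, together with log2 CPM values for 9638 genes. Those log2 values were recomputed from the deposited counts to within 4.97e-14. Both tables were used, all value columns matched a sample, and the aligner's version and its rule for tags claimed by several genes are not given in the sources used here. Counts of 12 LNCaP and 22Rv1 libraries were fitted together in edgeR 4.0.16 (R 4.3.3; filterByExpr, TMM, quasi-likelihood test, 8 residual degrees of freedom), and p-values were adjusted by Benjamini-Hochberg over 7086 genes at a threshold of 0.05. PC3 was left out of the tests. Intervals are 95%. Those of log2 fold changes in LNCaP and 22Rv1 come from the fit and include the spread between libraries. Those of CPM, of the PSMD5 ratio and of PC3 ratios cover counting error only, as do the 3 counts that a count of 0 allows. Alternatives used DESeq2 1.42.0, limma 3.58.1 (limma-trend on the log2 values), other scalings and filters, thinned counts, a replicate block and each library left out. The procedure was tested on simulated data. The paper states that its experiments had 3 or more biological replicates unless noted otherwise. The sample titles only number the replicates and do not name their cultures. The p-values measure the spread between these libraries, and how far that spread is technical was not tested. Replicate pairs differed by more than sampling noise (chi-square per degree of freedom 1.29 to 2.44).

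Any member could be named. Full statistics went to called members, at most the 8 with the smallest adjusted p per comparison, or to the 3 with the smallest p where fewer than 3 passed, and PSMB5 to PSMB10 and PSME1 to PSME4 were always named. Members, gene lists and motifs were chosen with earlier results of these data known. A few genes of the ubiquitin and antigen processing lists are not reported here and were left out of those lists' counts, whatever their values. Promoters came from RefSeq (GRCh38.p14) and gene positions from GENCODE 44, in which all 48 identifiers were found with the same version.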

Additional observations from a re-analysis of the deposited data

Results flagged for a closer look

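TXNL1, the lid-bound thioredoxin-like protein, was singled out because its response to SEL120-34A differed between the lines by a test of the difference itself. The inhibitor effect in LNCaP minus that in 22Rv1 was 0.93 on the log2 scale (95% interval 0.48 to 1.37, adjusted p = 0.0317 in edgeR), and the adjusted p ranged from 8.95e-04 to 0.175 over all settings, with the call lost in 10 of 21. All 3 treated LNCaP libraries were above the 3 controls.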

How the results depend on the processing

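The count of members that differed after SEL120-34A in LNCaP went from 0 to 1 (PSMC3) with library totals without TMM (2.67% of all genes) and when thinned to the smallest library (2.11%). In 22Rv1 it ranged from 0 to 1 as single libraries were left out, with 1 (PSMA1) without the third treated 22Rv1 library (4.98% of all genes). Between untreated lines the 15 of 41 (49% of all genes) became 9 of 41 with DESeq2 (38.5%) and 9 of 43 with limma-trend (32.8%), which shared 8 with the 15. It became 8 of 37 when thinned (39.4%) and 11 of 44 without a filter (20.4%). As single libraries were left out it was 9 to 16, beside 41.0% to 49.1% of all genes. The 9 came without the third LNCaP DMSO library, and 10 without the first or the third 22Rv1 DMSO library. PSMB5, PSMD4 and PSMB4 kept their calls in all 21 settings. The LNCaP core median of -0.05 became -0.14 with library totals, -0.13 with no filter and -0.082 to 0.039 (without the first treated LNCaP library) as single libraries were left out, and the LNCaP cap median of -0.11 became -0.20 with library totals and -0.18 to -0.031 as single libraries were left out (-0.031 without the second DMSO or the first treated LNCaP library). The 22Rv1 core median of 0.12 became -0.028 with library totals and 0.25 when thinned and ranged from 0.018 (without the second treated 22Rv1 library) to 0.19 (without the first) as single libraries were left out, and the cap median of -0.10 became -0.25, -0.16 (no filter), -0.18 (10 or more counts in each library) and -0.15 to -0.037 (without the third treated 22Rv1 library) as single libraries were left out. Values near 0 that changed sign were those of PSME3 in LNCaP (0.095 when thinned, -0.16 to 0.053 over libraries left out), PSMB5 (-0.11 to 0.043), PSMB6 (-0.23 to 0.00049) and PSME4 (-0.11 to 0.88) in LNCaP over libraries left out, PSMB6 in 22Rv1 (0.0075 when thinned, -0.27 to 0.035 over libraries left out), and PSME3 in 22Rv1 (-0.13 with library totals, -0.041 with no filter, -0.061 at 10 counts, -0.016 with each line alone, -0.0048 with limma-trend, -0.20 when thinned, -0.086 to 0.079 over libraries left out). The cause was not tested, except that thinning and left-out libraries lower the counts. With the replicate number as a block, 0, 0, 0 and 15 members differed in LNCaP, 22Rv1, the difference and the untreated lines. Same-numbered libraries deviated together by correlations of -0.05 to 0.12, and other pairs by -0.16 to 0.07. With deviations taken from the mean of only 3 libraries, these values cannot decide whether libraries were paired. Genes under about 10 counts per library, among them PSME4, PSMD10 and PSMB9, are limited by depth, and PC3 by its single libraries.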
